A study of Rattus norvegicus with 16 samples.

Results

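The muscle microRNAs miR-1, miR-133a, miR-133b and miR-206 were followed in 2 brain regions, the amygdala and the dorsal raphe, of rats from a high responder and a low responder line. Members were the rows named rno-miR-1 (exactly that number), rno-miR-133a, rno-miR-133b, rno-miR-133c or rno-miR-206, with any arm suffix. This rule, which uses names and no measured value, found 8 of 722 rows, which are the 3p and the 5p arm of miR-1, miR-133a, miR-133b and miR-206. No row carried the name miR-133c. Mature miRNAs were counted by small RNA sequencing of total RNA from brain tissue of rats aged 60 days. The 4 groups were high responder amygdala, low responder amygdala, high responder dorsal raphe and low responder dorsal raphe, with 4 libraries each and 16 in all. The labels name the 2 kinds of rats as strains, which are known as lines selected on how much a rat moves about in a strange setting, and record no treatment. Dissection, pooling of tissue and the number of animals behind a group are not described, and the spread between libraries that enters each p-value may therefore be technical.

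A miRNA is a short RNA that guides a silencing complex to messenger RNAs, mainly by pairing through its seed near the 5′ end. miR-1 and miR-133a are made from shared precursor transcripts in heart and skeletal muscle, and miR-206 and miR-133b from another, chiefly in skeletal muscle. In cultured mouse myoblasts miR-1 and miR-206 promote differentiation, while miR-133 favours proliferation. All are known in brain at far lower levels than in muscle. In mouse midbrain, miR-133b has been studied in dopamine neurons, and miR-206 is known to target the messenger RNA of the neurotrophin BDNF.

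The mature sequences show which members can be expected to share targets and which are hard to tell apart by sequencing. They are taken from RefSeq (GRCr8), in which 7 of the 8 members were matched; each is written 5′ to 3′, and capitals mark the seed, bases 2 to 8. The 3p arms fall into 2 seed groups, and the 5p arms of the miR-133 pair are shown because their values went in opposite directions.
miR-1-3p: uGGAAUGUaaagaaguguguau
miR-206-3p: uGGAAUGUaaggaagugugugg
miR-133a-3p: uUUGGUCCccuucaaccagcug
miR-133b-3p: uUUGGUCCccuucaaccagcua
miR-133a-5p: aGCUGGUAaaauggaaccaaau
miR-133b-5p: gCUGGUCAaacggaaccaagu
Among the 693 mature rat sequences of the table, the seed GGAAUGU was held by 3 (0.433%), which are miR-1-3p, miR-206-3p and miR-1b, and the seed UUGGUCC by the 2 miR-133 3p arms (0.289%). Counting positions from 1 at the 5′ end, miR-1-3p and miR-206-3p were identical at 19 of 22 bases and differed by A11G, A21G and U22G. miR-133a-3p and miR-133b-3p were identical at 21 of 22 bases and differed only by G22A, in the last base. How the counting handled a read that fits more than 1 miRNA is not stated, so the split of counts between miR-133a-3p and miR-133b-3p is uncertain. miR-1b, which differs from miR-1-3p by G17A, has no row under that name. In GRCr8 the precursors of miR-1 and miR-133a lie on chromosome 18, with 2368 bases between them, and those of miR-206 and miR-133b lie on chromosome 9, with 3801 bases between them. The row miR-3582, for which RefSeq gives miR-133c as another name, is antisense to the miR-133a precursor and was no member by the rule. It had 1 to 7 counts in the amygdala libraries and 0 to 7 in the dorsal raphe libraries. Whether the counting used strand is not stated either.

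The libraries held 1741167 to 8134915 counts, and the muscle miRNAs made up 0.0240% to 0.303% of a library. The most abundant was rno-miR-1-3p with 80.4% of all their counts, before rno-miR-133a-3p with 10.2%, rno-miR-206-3p with 7.26% and rno-miR-133b-3p with 1.10%, so that the 4 3p arms together held 98.93%. Levels are given as CPM, the count relative to the library's total after that total was adjusted with edgeR's TMM factors, which correct for differences in composition between libraries. Low responder dorsal raphe replicate 4 stood apart, with a TMM factor of 0.596 against 0.871 to 1.27 elsewhere, which raises its scaled levels, so results that rest on it are also given without it. The regional labels were checked against markers: miR-10b-5p, of a Hox cluster that marks hindbrain, had 6.29 to 53.8 CPM in amygdala and 240 to 2610 CPM in dorsal raphe. Of 9 listed neuronal miRNAs, 7 were higher in amygdala (adjusted p under 0.05, edgeR), beside 9.39% of all miRNAs tested. The 7 were arms of miR-128, miR-132 and miR-212. The log2 differences of miR-124-3p (-0.47, adjusted p = 0.256) and miR-124-5p (0.08, adjusted p = 0.839) did not pass in edgeR. In tissue samples, fewer cells of a type and less RNA per cell cannot be told apart.

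The main difference lay between the regions. All 4 3p arms were lower in amygdala than in dorsal raphe when the difference was averaged over both lines, and the size ran from 3.71-fold for miR-206-3p to 7.61-fold for miR-133a-3p. Of the 7 members tested, 5 were lower in amygdala at an adjusted p under 0.05 (edgeR's quasi-likelihood test with Benjamini-Hochberg adjustment over 639 miRNAs), while 14.9% of all miRNAs tested were lower. 1 member, miR-133b-5p, was higher, a direction called for 9.39% of all miRNAs tested. The median log2 difference of the 7 members was -1.89, beside -0.08 over all miRNAs tested. The eighth member, miR-1-5p, fell below the filter on low counts.

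miR-1-3p, the most abundant muscle miRNA in these tissues, had 280, 198, 293 and 206 CPM in high responder amygdala and 319, 168, 198 and 305 CPM in low responder amygdala. Its levels in dorsal raphe were 1080, 1223, 972 and 1367 CPM in high responders and 1125, 1511, 1473 and 4697 CPM in low responders. Every amygdala library lay below every dorsal raphe library. miR-1-3p, miR-133a-3p and miR-206-3p were the 3 members whose 8 amygdala and 8 dorsal raphe libraries did not overlap, which held, in the lower direction, for 4.69% of all miRNAs tested. miR-1-3p was 6.50-fold lower in amygdala, with a log2 difference of -2.70 ± 0.27 (SE; adjusted p = 2.35e-06, edgeR). Without low responder dorsal raphe replicate 4, which had the highest level of all, the difference was -2.32 (adjusted p = 2.26e-07).

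miR-206-3p, which shares the seed of miR-1-3p, had 19.7, 21.1, 45.6 and 26.6 CPM in high responder amygdala and 42.6, 22.6, 31.2 and 57.1 CPM in low responder amygdala. Its levels were 116, 142, 157 and 75.7 CPM in high responder dorsal raphe and 68.9, 58.1, 78.3 and 291 CPM in low responder dorsal raphe. The gap between the regions was narrow, with 57.1 CPM in the highest amygdala library and 58.1 CPM in the lowest dorsal raphe library. The log2 difference averaged over lines was -1.89 ± 0.34 (SE; adjusted p = 0.000633, edgeR), and -1.43 (adjusted p = 0.000436) without low responder dorsal raphe replicate 4. Its 5p arm was scarce, at 1.38 to 4.46 CPM in amygdala and 0 to 9.98 CPM in dorsal raphe. For miR-206-5p the difference of -0.93 ± 0.43 (SE) did not pass the threshold (adjusted p = 0.110, edgeR). It passed without low responder dorsal raphe replicate 4, the library with no count of miR-206-5p (-1.05, adjusted p = 0.0210).

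miR-133a-3p, made together with miR-1, had 14.4, 10.7, 24.5 and 26.3 CPM in high responder amygdala and 22.9, 21.7, 24.1 and 36.1 CPM in low responder amygdala. In high responder dorsal raphe it had 140, 138, 186 and 179 CPM, and in low responder dorsal raphe 169, 229, 236 and 92.9 CPM. The regions did not overlap, and replicate 4 of low responder dorsal raphe was here the lowest of the dorsal raphe libraries, not the highest. The log2 difference was -2.93 ± 0.24 (SE; adjusted p = 1.84e-07, edgeR), which was the fourth lowest p of the 639 miRNAs tested. Without that library it was -2.99 (adjusted p = 1.33e-07).

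miR-133b-3p, which differs from miR-133a-3p in 1 base, was scarcer by about an order of magnitude in most libraries. It had 0.532, 2.96, 2.81 and 3.76 CPM in high responder amygdala and 5.27, 3.86, 3.69 and 3.70 CPM in low responder amygdala. It had 19.6, 17.0, 29.2 and 10.8 CPM in high responder dorsal raphe and 14.5, 18.3, 20.7 and 4.81 CPM in low responder dorsal raphe. Here the regions overlapped through low responder dorsal raphe replicate 4, where 6 counts were seen. The log2 difference was -2.35 ± 0.31 (SE; adjusted p = 3.06e-05, edgeR), and -2.44 (adjusted p = 5.29e-06) without that library. With the counts of miR-133a-3p and miR-133b-3p summed, so that the split between them has no effect, the difference was -2.88.

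**Figure D1:**
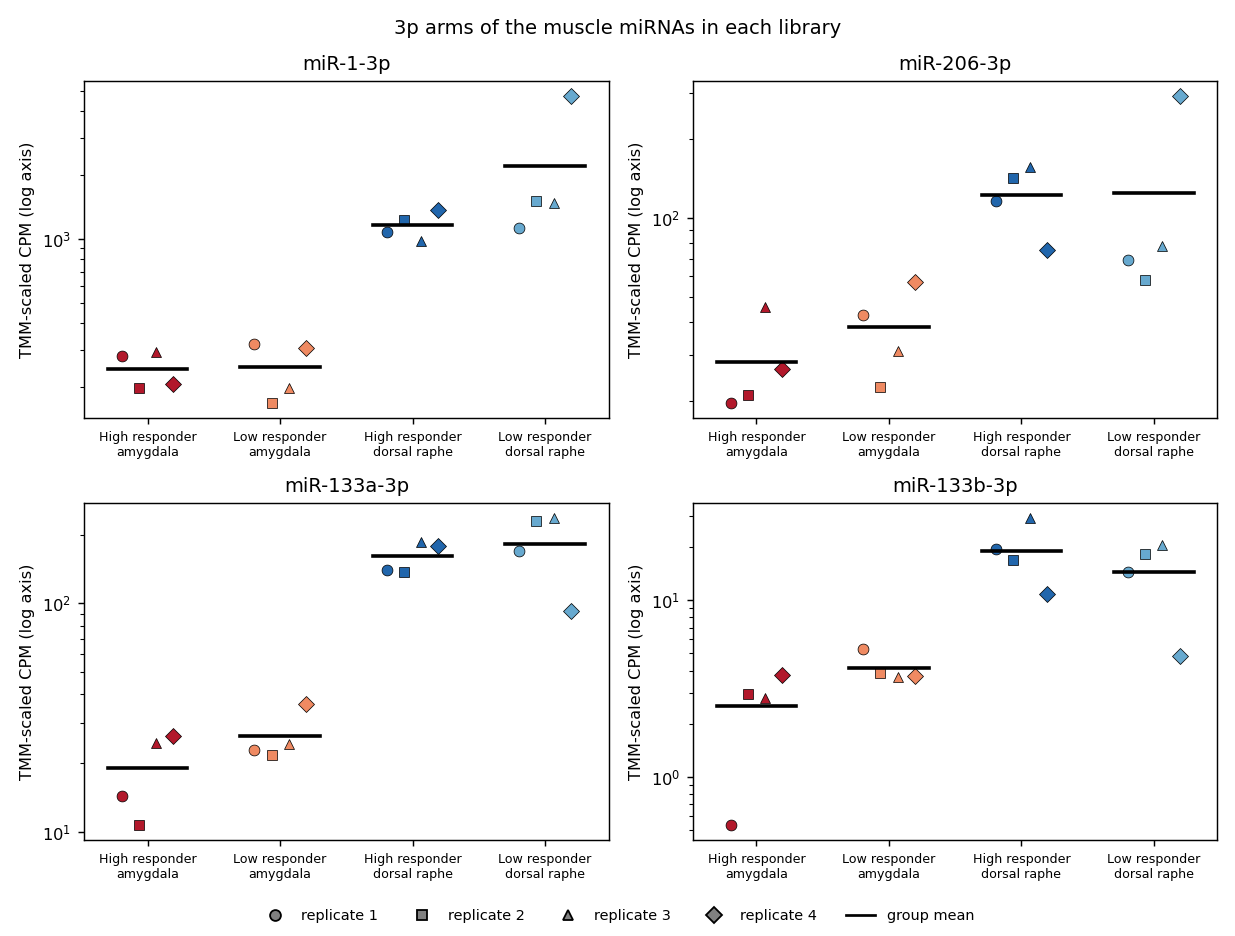
Levels of miR-1-3p, miR-206-3p, miR-133a-3p and miR-133b-3p in TMM-scaled CPM (log axis) in each of the 16 libraries, by group; a symbol is a library and a line the group mean. Every amygdala library lies below every dorsal raphe library for miR-1-3p (168 to 319 against 972 to 4697 CPM) and miR-133a-3p (10.7 to 36.1 against 92.9 to 236 CPM), and replicate 4 of low responder dorsal raphe is the highest library for miR-1-3p and miR-206-3p and the lowest dorsal raphe library for miR-133a-3p and miR-133b-3p.

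The 5p arms, the strands of a precursor that are usually discarded, were near the limit of detection and did not all follow their 3p partners. The level that 3 counts stand for ran from 0.369 to 1.72 CPM before TMM scaling, depending on the library. miR-133a-5p had 1.06, 4.07, 0.165 and 0.706 CPM in high responder amygdala and 1.60, 1.65, 1.52 and 1.19 CPM in low responder amygdala, from 1 to 11 counts. It had 3.59, 4.34, 4.78 and 3.85 CPM in high responder dorsal raphe and 3.59, 6.56, 3.72 and 4.00 CPM in low responder dorsal raphe, from 5 to 29 counts. 7 amygdala libraries lay below all dorsal raphe libraries, and high responder amygdala replicate 2 lay among them. miR-133a-5p was lower in amygdala by -1.58 ± 0.42 on the log2 scale (SE; adjusted p = 0.00969, edgeR).

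miR-133b-5p was the only tested member that went the other way. Its counts were 15, 25, 23 and 3 in high responder amygdala and 34, 20, 19 and 6 in low responder amygdala, against 8, 5, 4 and 0 in high responder dorsal raphe and 9, 5, 0 and 1 in low responder dorsal raphe. In scaled levels these were 0.706 to 9.24 CPM in amygdala and 0 to 2.61 CPM in dorsal raphe. Replicate 4 was the lowest library of each amygdala group, at 0.706 and 0.792 CPM, and these libraries overlapped with dorsal raphe. The log2 difference was 2.30 ± 0.67 (SE; adjusted p = 0.0170, edgeR). The call was lost with limma-voom (2.12, adjusted p = 0.0668). Both dorsal raphe libraries with no count allow up to 3 counts, which is 0.808 CPM in high responder dorsal raphe replicate 4 and 0.585 CPM in replicate 3 of low responder dorsal raphe, before TMM scaling. Within a library the 3p arm of miR-133b had 0.0667 to 5.33 times the counts of its 5p arm in amygdala, and 6 to 44.2 times in the 6 dorsal raphe libraries in which the 5p arm was counted. The median ratio in amygdala was 0.817, but the libraries scattered widely around it, and the lowest ratio rests on 1 count of the 3p arm. In dorsal raphe the 3p arm dominated. miR-1-5p had 2 to 14 counts in amygdala and 0 to 5 in dorsal raphe and was not tested.

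**Figure D2:**
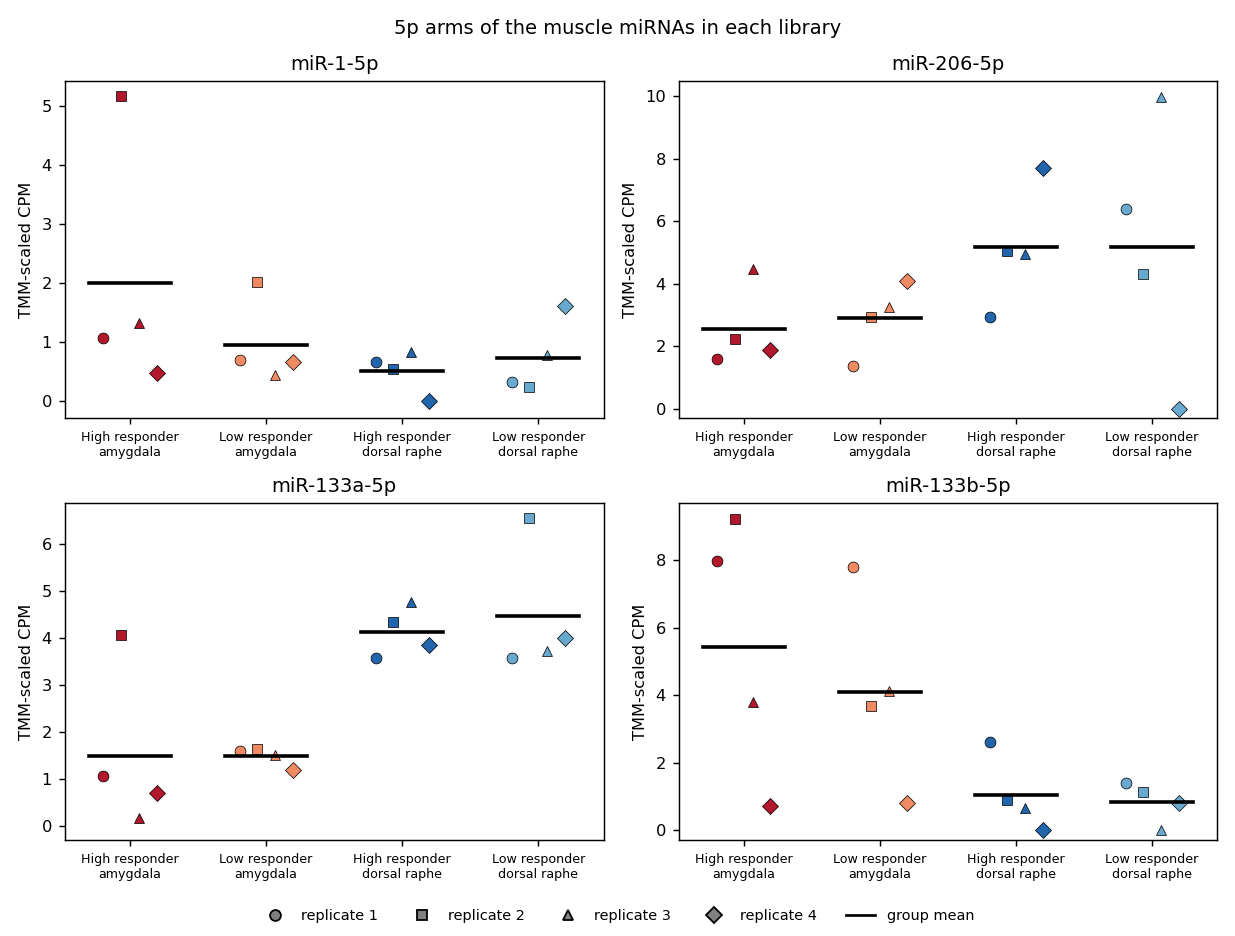
Levels of miR-1-5p, miR-206-5p, miR-133a-5p and miR-133b-5p in TMM-scaled CPM (linear axis) in each library, by group; a symbol is a library and a line the group mean. miR-133a-5p lies lower in amygdala (0.165 to 4.07 CPM) than in dorsal raphe (3.59 to 6.56 CPM), while miR-133b-5p lies higher in most amygdala libraries (0.706 to 9.24 CPM) than in dorsal raphe (0 to 2.61 CPM).

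Within each line the 4 3p arms were again called lower in amygdala, though in low responders 2 of these calls, miR-133b-3p and miR-206-3p, did not hold in every fit. In high responders 4 of the 7 members were lower in amygdala, the 3p arms, while 6.57% of all miRNAs tested were lower. The same 4 were also those whose amygdala and dorsal raphe libraries did not overlap, which held in the lower direction for 12.4% of all miRNAs tested. The log2 differences in high responders were -2.25 ± 0.39 for miR-1-3p, -2.11 ± 0.48 for miR-206-3p, -3.06 ± 0.34 for miR-133a-3p and -2.84 ± 0.46 for miR-133b-3p (SE; adjusted p = 0.000947, 0.00738, 1.64e-05 and 0.000472 by edgeR, in that order). For miR-133a-5p the difference in high responders was -1.59 ± 0.61 (SE) and did not pass (adjusted p = 0.101, edgeR), but without high responder amygdala replicate 2 it was -2.83 (adjusted p = 0.00376), and limma-voom called it (-2.28, adjusted p = 0.0125). The difference of miR-133b-5p was 2.39 ± 0.93 (SE), which did not pass (adjusted p = 0.103, edgeR). It passed without high responder dorsal raphe replicate 1 (3.16, adjusted p = 0.0487) or high responder amygdala replicate 4 (2.87, adjusted p = 0.0318), and with DESeq2 (2.50, adjusted p = 0.0359).

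In low responders 4 of the 7 members were lower in amygdala, again the 3p arms, while 10.5% of all miRNAs tested were lower. Without overlap between the regions were miR-1-3p, miR-133a-3p, miR-133a-5p and miR-206-3p, beside 13.1% of all miRNAs tested in the lower direction. The log2 difference of miR-1-3p was -3.15 ± 0.38 (SE; adjusted p = 7.01e-05, edgeR) and that of miR-133a-3p -2.79 ± 0.34 (SE; adjusted p = 4.60e-05). miR-133b-3p differed by -1.86 ± 0.43 (SE; adjusted p = 0.00779) and miR-206-3p by -1.67 ± 0.47 (SE; adjusted p = 0.0266). The call of miR-206-3p depended on which libraries were fitted. Without low responder dorsal raphe replicate 4 the difference was -0.71 (adjusted p = 0.218) and the call was also lost when any of 8 other single libraries was left out, with adjusted p up to 0.151. With only the compared groups in the fit the difference was -1.55 (adjusted p = 0.107). miR-133b-3p lost its call without low responder amygdala replicate 3 (-1.68, adjusted p = 0.0565), which left 2 members called. For miR-133a-5p the difference of -1.58 ± 0.58 (SE) did not pass (adjusted p = 0.0752, edgeR), but it passed without high responder amygdala replicate 2 (-1.43, adjusted p = 0.0422) or replicate 3 (-1.50, adjusted p = 0.0425). With only the compared groups in the fit miR-133a-5p passed as well (-1.43, adjusted p = 0.0205). miR-1-3p differed by -2.35 without low responder dorsal raphe replicate 4 (adjusted p = 2.65e-05).

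Between the lines no member differed past the threshold in either region. In dorsal raphe 0 of 7 members and 0% of the 639 miRNAs tested passed in edgeR. Before adjustment 1 member and 70 miRNAs had a p under 0.05. Both DESeq2 and limma-voom called 0 miRNAs there, members included. In amygdala 0 of 7 members and 0% of all miRNAs passed in edgeR, with 0 members and 65 miRNAs at an unadjusted p under 0.05. There limma-voom called 0 miRNAs, and DESeq2 called 20 miRNAs and 0 members. No member's high responder and low responder libraries were without overlap, beside 4.23% of all miRNAs in dorsal raphe and 8.76% in amygdala.

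The member with the lowest p for the line difference in dorsal raphe was miR-1-3p, at -0.92 ± 0.38 on the log2 scale, high over low responders (SE; adjusted p = 0.370, edgeR). Its 95% interval ran from -1.73 to -0.11. The value rested on low responder dorsal raphe replicate 4, and without it the difference was -0.11 (adjusted p = 0.996). miR-206-3p had means of 123 ± 35.7 CPM in high responder and 124 ± 111 CPM in low responder dorsal raphe (SD, n = 4 each), and its log2 difference was 0.00, with an interval from -0.99 to 0.99. Without replicate 4 that difference was 0.98 (adjusted p = 0.996), since the 3 remaining low responder libraries had 58.1 to 78.3 CPM. For miR-133a-3p the difference in dorsal raphe was -0.18, with an interval from -0.88 to 0.52, and for miR-133b-3p 0.35, with an interval from -0.52 to 1.22. A difference of 1 unit, which is a doubling, therefore lay inside the interval of miR-133b-3p and outside that of miR-133a-3p.

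In amygdala the high responder over low responder differences of the 3p arms were -0.02 for miR-1-3p (95% interval -0.83 to 0.79), -0.43 for miR-206-3p (-1.44 to 0.58), -0.45 for miR-133a-3p (-1.17 to 0.27) and -0.62 for miR-133b-3p (-1.62 to 0.37). The means of miR-1-3p were close, at 244 ± 49.3 CPM in high responders and 247 ± 75.5 CPM in low responders (SD, n = 4 each). The 5p arms could be compared only coarsely, and the widest interval between the lines, that of miR-133b-5p in dorsal raphe, ran from -2.03 to 2.42. The interaction of line and region, which asks whether the line difference in amygdala differs from that in dorsal raphe, passed for 0 of 7 members and 0% of the 639 miRNAs in edgeR. At an unadjusted p under 0.05 there were 0 members and 81 miRNAs. DESeq2 called 12 miRNAs and limma-voom 0, with 0 members in each. The largest interaction values were -0.98 ± 0.63 for miR-133b-3p and 0.90 ± 0.54 for miR-1-3p (SE; adjusted p = 0.544 and 0.511, edgeR), and that of miR-1-3p was 0.06 without low responder dorsal raphe replicate 4. The interaction of miR-206-3p was -0.43 ± 0.67 (SE; adjusted p = 0.883, edgeR) with all libraries and -1.44 (adjusted p = 0.362) without that library.

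**Figure D3:**
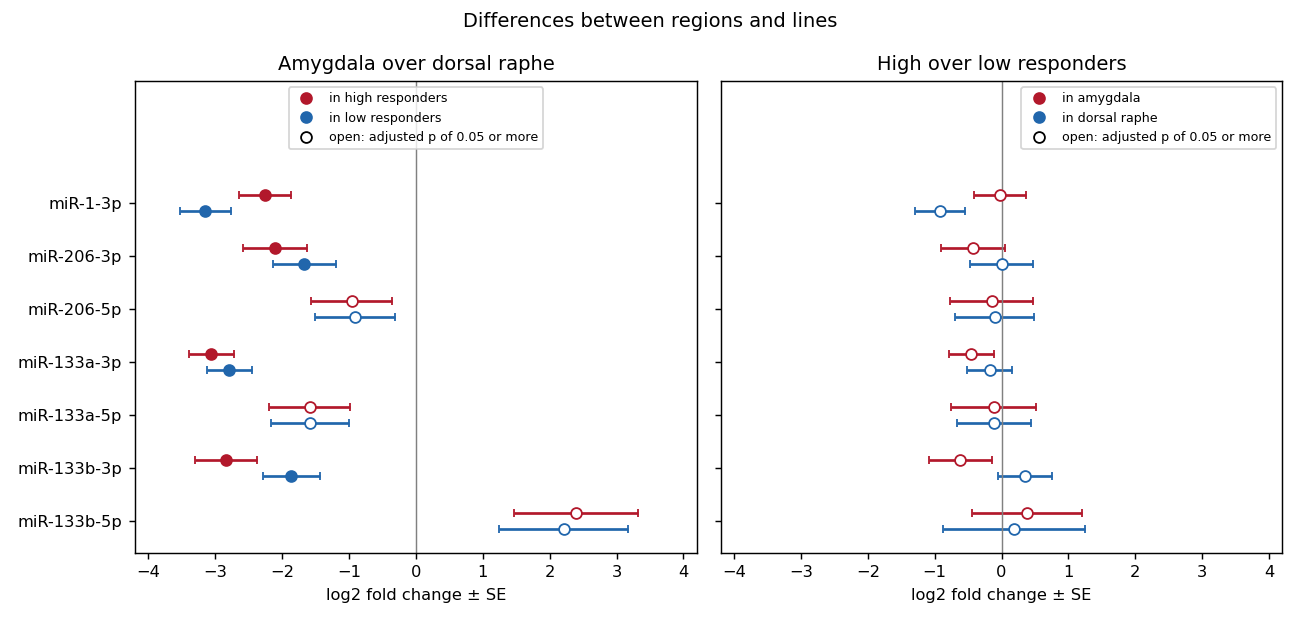
Log2 fold changes with SE from the edgeR fit to all 16 libraries for the 7 tested members; left, amygdala over dorsal raphe in each line, and right, high over low responders in each region, with filled points at an adjusted p under 0.05. The 4 3p arms lie to the left of 0 in both lines, between -3.15 and -1.67, miR-133b-5p lies to the right (2.39 and 2.21, not past the threshold in a single line), and no line difference is filled.

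The levels can be put in order over the groups for each 3p arm. miR-1-3p ran from 244 ± 49.3 CPM in high responder amygdala and 247 ± 75.5 CPM in low responder amygdala to 1160 ± 172 CPM in high responder and 2201 ± 1673 CPM in low responder dorsal raphe (SD, n = 4 each). miR-133a-3p kept this order, with 19.0 ± 7.61, 26.2 ± 6.65, 160 ± 25.2 and 182 ± 66.3 CPM (SD, n = 4 each). miR-206-3p did as well, with 28.2 ± 12.0, 38.4 ± 14.9, 123 ± 35.7 and 124 ± 111 CPM (SD, n = 4 each). For miR-133b-3p the order of the dorsal raphe groups was the other way round, with 2.52 ± 1.39 CPM in high responder amygdala, 4.13 ± 0.766 CPM in low responder amygdala, 19.1 ± 7.64 CPM in high responder dorsal raphe and 14.6 ± 7.01 CPM in low responder dorsal raphe (SD, n = 4 each). Without low responder dorsal raphe replicate 4 that group averaged 68.4 ± 10.1 CPM of miR-206-3p (SD, n = 3), below high responder dorsal raphe, and 1370 ± 213 CPM of miR-1-3p (SD, n = 3). Neighbours from the same region did not differ past the threshold. The step from low responder amygdala to high responder dorsal raphe was not tested as such.

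Ratios of 2 members within a library do not depend on the scaling between libraries and describe how closely partners of 1 cluster moved together. miR-1-3p had 7.82 to 19.5 times the counts of miR-133a-3p in high responder amygdala, 7.75 to 13.9 times in low responder amygdala and 5.24 to 8.88 times in high responder dorsal raphe. In low responder dorsal raphe the ratios were 6.66, 6.60, 6.25 and 50.6. Replicates 1 to 3 of that group thus stood within the range of the other dorsal raphe group, and replicate 4 had 5864 counts of miR-1-3p but 116 of miR-133a-3p. The second cluster showed the same library apart: miR-206-3p over miR-133b-3p was 4.74, 3.17 and 3.77 in replicates 1 to 3 and 60.5 in replicate 4, from 363 and 6 counts. Elsewhere that ratio was 7.06 to 37.0 in high responder amygdala, 5.86 to 15.4 in low responder amygdala and 5.39 to 8.36 in high responder dorsal raphe. The value of 37.0, in high responder amygdala replicate 1, rests on 1 count of miR-133b-3p.

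The ratios between members that share a seed group were less affected in that library. miR-1-3p over miR-206-3p was 16.3, 26.0, 18.8 and 16.2 in low responder dorsal raphe, so replicate 4 lay just below the other libraries of its group. miR-133a-3p over miR-133b-3p was 11.6, 12.5, 11.4 and 19.3 there, the last from 116 and 6 counts. In replicate 4 the members with the seed GGAAUGU were therefore high together, and those with the seed UUGGUCC low together, relative to the rest of the group. miR-1-3p over miR-206-3p was 6.43 to 14.2 in high responder amygdala, 5.34 to 7.47 in low responder amygdala and 6.19 to 18.1 in high responder dorsal raphe, so that the 4 low responder dorsal raphe libraries lay above all amygdala libraries.

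**Figure D4:**
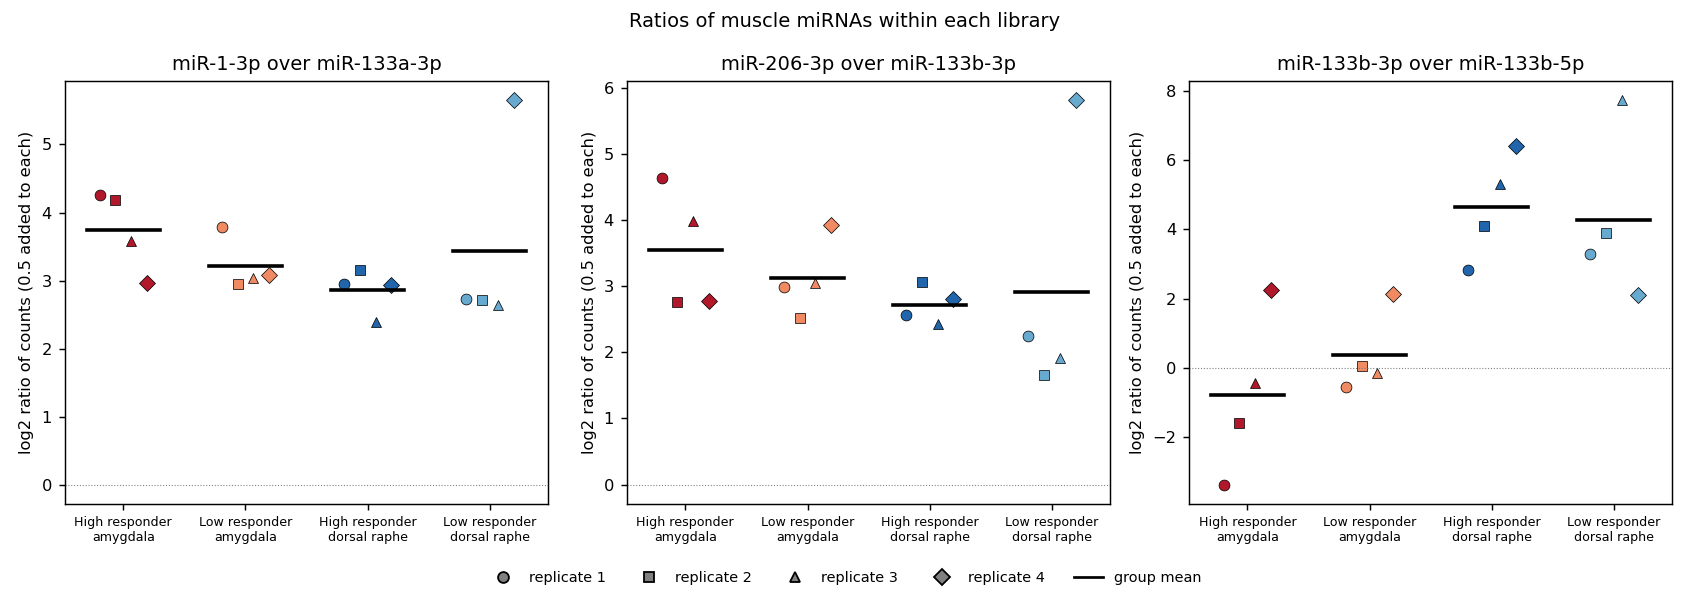
Log2 ratio of counts within each library (0.5 added to each count) for miR-1-3p over miR-133a-3p, miR-206-3p over miR-133b-3p and miR-133b-3p over miR-133b-5p, by group; a symbol is a library and a line the group mean. Low responder dorsal raphe replicate 4 lies far above its group in the first panel (5.65 against 2.64 to 2.73) and the second (5.81 against 1.66 to 2.24), and in the third panel the group means are -0.79 and 0.37 in amygdala and 4.66 and 4.26 in dorsal raphe, with an overlap of the regions through the replicates numbered 4 (2.24 and 2.13 in amygdala, 2.12 in low responder dorsal raphe).

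Other miRNAs of striated muscle were mostly too scarce to compare. Of 6 listed arms of miR-208a, miR-208b and miR-499, which are encoded in myosin heavy chain genes, 3 were tested and 1 was lower in amygdala. That was miR-499-5p, at 139 to 430 CPM in amygdala and 159 to 864 CPM in dorsal raphe, with a log2 difference of -1.15 ± 0.30 (SE; adjusted p = 0.0107, edgeR). The 4 arms of miR-208a and miR-208b had at most 17 counts in any library. miR-208b-3p had a log2 difference of 1.04 ± 0.45 (SE; adjusted p = 0.0948, edgeR), and miR-499-3p one of -0.02 ± 0.26 (SE; adjusted p = 0.952).

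Markers of other cell types were set beside the muscle miRNAs, since some of them differed between the regions as well. All lists were written with earlier results of these data known. Beside the edgeR counts of each list in the averaged comparison stand 14.9% of all miRNAs tested called lower in amygdala and 9.39% called higher. Of 7 smooth muscle and vascular miRNAs (miR-143, miR-145 and miR-126 arms), 0 passed in edgeR in either direction and the median log2 difference was -0.58. At an unadjusted p under 0.05 in edgeR, 4 of them were lower in amygdala, beside 140 of all 639 miRNAs tested. DESeq2 called 3 of them and limma-voom 2 as lower, beside 103 and 95 of all 639. The lowest p of this list was that of miR-126a-3p, at -0.63 ± 0.22 (SE; adjusted p = 0.0503, edgeR). The absence of calls in edgeR rested on low responder dorsal raphe replicate 4. Without it miR-126a-3p (-0.69, adjusted p = 0.0144), miR-126a-5p (-0.76, adjusted p = 0.0355) and miR-145-3p (-0.61, adjusted p = 0.0487) passed as lower. The other arms of the list did not pass. The summed level of this list was 33248 to 49935 CPM in amygdala and 43996 to 119379 CPM in dorsal raphe, with the highest value in low responder dorsal raphe replicate 4. Of 4 fibroblast miRNAs, 2 were higher in amygdala, miR-214-3p (1.04 ± 0.36, adjusted p = 0.0425) and miR-214-5p (1.15 ± 0.39, adjusted p = 0.0416), both by edgeR. The calls were lost with limma-voom (0.81, adjusted p = 0.142, and 0.97, adjusted p = 0.0894, in the same order). Both miR-214 arms had at most 43 counts in any library. The more abundant miR-199a-3p (-0.19, adjusted p = 0.573) and miR-199a-5p (0.10, adjusted p = 0.731) did not pass in edgeR. The summed level of the fibroblast list was 146 to 362 CPM in amygdala and 145 to 290 CPM in dorsal raphe. Of 4 erythrocyte miRNAs 0 passed in edgeR, DESeq2 or limma-voom, with a median of 0.25 and 0 at an unadjusted p under 0.05 in edgeR. Of 5 oligodendrocyte miRNAs, 3 were lower in amygdala and the median was -0.87. The call of miR-219-2-3p (-0.89, adjusted p = 0.0448, edgeR) was lost without low responder dorsal raphe replicate 4 (-0.43, adjusted p = 0.128). miR-338-3p, which promotes oligodendrocyte differentiation in mouse, differed by -1.18 ± 0.29 (SE; adjusted p = 0.00762, edgeR). In high responders alone 0 of the 5 oligodendrocyte miRNAs passed in edgeR (median -0.23), while 6.57% of all miRNAs tested were lower. In low responders alone 2 of the 5 were lower (median -1.14), beside 10.5% of all miRNAs tested. Of 6 Hox cluster miRNAs tested, 2 were lower in the averaged comparison, miR-10b-5p (-4.30 ± 0.53, adjusted p = 3.89e-05) and miR-10a-5p (-2.31 ± 0.45, adjusted p = 0.00126), both by edgeR. Without low responder dorsal raphe replicate 4 their differences were smaller, at -3.43 (adjusted p = 7.99e-06) and -1.54 (adjusted p = 0.000555) in the same order. For these 2 miRNAs DESeq2 gave no p-value, and limma-voom also called them lower. DESeq2 called miR-196c-3p higher (1.20, adjusted p = 0.0477), while edgeR gave 1.08 and no call. No listed miRNA of these groups was at 0 in all libraries, and the part of any of these cell types in the muscle miRNA differences was not tested.

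Of 7 choroid plexus miRNAs, 5 were higher in amygdala, with a median log2 difference of 1.68. miR-1298, known from choroid plexus, had 1092 to 38568 CPM in amygdala and 720 to 3186 CPM in dorsal raphe. The summed level of the list was 11489 to 50337 CPM in 7 amygdala libraries and 2146 CPM in low responder amygdala replicate 4, against 2563 to 7180 CPM in dorsal raphe. That amygdala library, with the lowest choroid plexus signal of all 16, had 305 CPM of miR-1-3p. It had the highest amygdala levels of miR-133a-3p (36.1 CPM) and miR-206-3p (57.1 CPM). Its miR-133b-3p, at 3.70 CPM, lay within the amygdala range of 0.532 to 5.27 CPM. The same library had the highest summed oligodendrocyte level in amygdala, 13595 CPM. The part of choroid plexus or oligodendrocyte content in the muscle miRNA levels was not tested. Of 9 tested epithelial and pituitary miRNAs, 3 were higher in amygdala (median 1.13), among them miR-429 (2.43 ± 0.49, adjusted p = 0.00109, edgeR), with 0 to 7 counts in dorsal raphe. The most abundant of the list, miR-375-3p, did not pass (-0.74, adjusted p = 0.254, edgeR). It had 7.4 to 329 CPM in amygdala and 101 to 761 CPM in dorsal raphe. The median summed level of the list was 231 CPM in amygdala and 239 CPM in dorsal raphe. Low responder dorsal raphe replicate 4 had the highest summed level of this list, 785 CPM, and of the Hox cluster list, 3935 CPM against 389 to 480 CPM in the other dorsal raphe libraries.

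**Figure D5:**
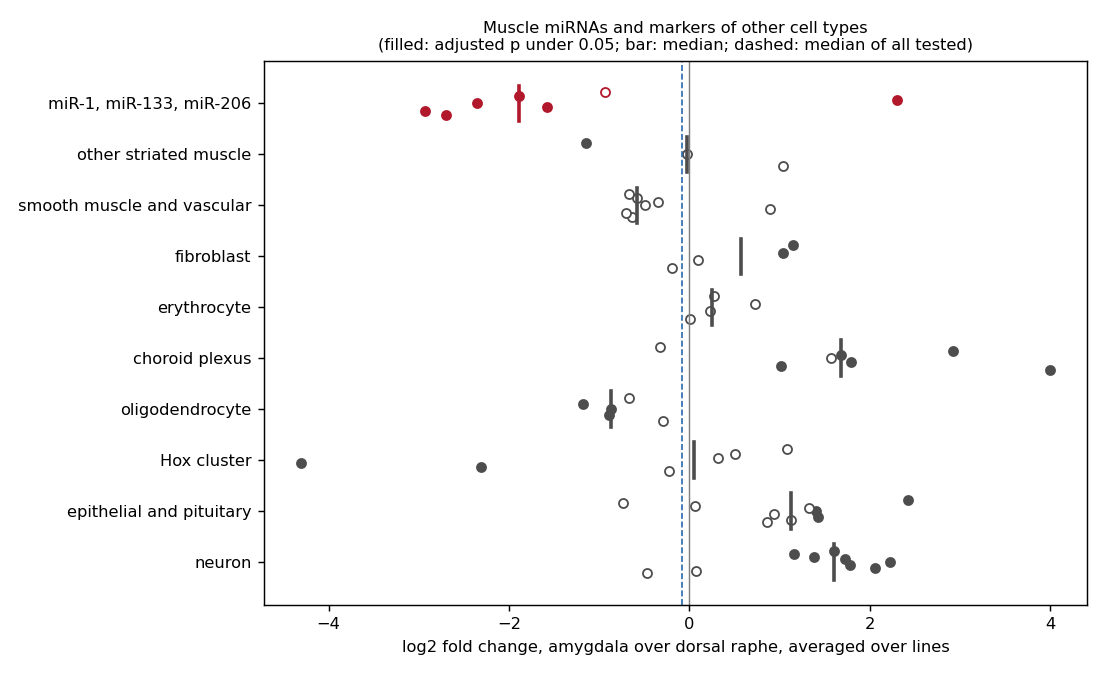
Log2 fold change, amygdala over dorsal raphe averaged over lines, of each tested muscle miRNA (red) and of the listed markers of other cell types (grey); filled points have an adjusted p under 0.05, a short bar is the list's median and the dashed line the median of all 639 miRNAs tested (-0.08). The muscle miRNAs have 5 filled points below 0 and 1 above (median -1.89), while smooth muscle and vascular miRNAs have none filled (median -0.58) and neuronal miRNAs have 7 filled points above 0 (median 1.61).

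The miRNAs with the pattern most like that of 2 abundant members were found by the mean absolute difference of log2 CPM over the 16 libraries, after each miRNA's mean was subtracted. All points share the same libraries, so closeness reflects any regional or library difference. For miR-1-3p the nearest non-members among 403 miRNAs with a mean of at least 10 CPM were miR-217-5p (0.50), miR-298-5p (0.50), miR-183-5p (0.54), miR-216a-5p (0.57) and miR-298-3p (0.58), where the median miRNA had 1.20. Its cluster partner miR-133a-3p and its seed relative miR-206-3p both stood at 0.61, and miR-133b-5p at 2.21. For miR-133a-3p the nearest non-members were miR-34a-5p (0.36), miR-298-5p (0.44), miR-96-5p (0.46), miR-653-5p (0.55) and miR-135a-5p (0.58), where the median miRNA had 1.38. miR-133b-3p stood at 0.57 and miR-1-3p at 0.61 from it. The 9 miRNAs named here were picked for a profile over the same libraries, so their regional differences follow from the choice and are given without a test: the log2 differences ran from -3.72 for miR-653-5p to -1.56 for miR-298-3p. miR-34a-5p, the miRNA most like miR-133a-3p, had 34.1 to 282 CPM in amygdala and 445 to 2041 CPM in dorsal raphe. miR-183-5p, known with miR-96 from sensory organs, had 7.92 to 39.9 CPM in amygdala and 53.6 to 751 CPM in dorsal raphe.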

How the data were processed

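The authors deposited 1 table of whole-number read counts per mature miRNA for each library, not normalised. Per the submitters' processing notes, cutadapt 1.3.1, Bowtie2 and bedtools 2.14.2 were used; settings, genome build and annotation: not given in the sources used here. The 722 rows were filtered with filterByExpr (minimum count 10, minimum total 15), which kept 639. The test was that of edgeR 4.0.16, run in R 4.3.3 (trimmed mean of M values (TMM) scaling, robust quasi-likelihood test, 1 mean for each of the 4 groups, threshold 0.05 after Benjamini-Hochberg adjustment over all miRNAs tested). SEs and 95% intervals are Wald values from that fit. log2 CPM uses a prior count of 2. Alternatives used limma 3.58.1 (voom) and DESeq2 1.42.0. The fitting was first tested on simulated data. All 120 pairs of libraries differed beyond sampling noise (lowest chi-square per degree of freedom 50.5). Floors of 3 counts cover counting error only.

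Named were all members, up to 3 miRNAs of lowest p from each other list, and the 5 miRNAs most like miR-1-3p and like miR-133a-3p. Members and lists were chosen with earlier results of these data known. The labels number libraries 1 to 4 in each group. Same-numbered libraries deviated together (correlation over 0.1 in every pair) only between high responder and low responder amygdala, with 0.69, 0.29, 0.21 and 0.51. What a number stands for is not stated.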

Additional observations from a re-analysis of the deposited data

Results flagged for a closer look

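In groups of 4 libraries, the distance of the highest or lowest library from its nearest neighbour was compared with the group's range, and chance alone marks about 1 group in 20. Of 60 groups examined, 5 were marked, 3 of them through low responder dorsal raphe replicate 4. There the log2 ratio of miR-1-3p over miR-133a-3p was 5.65, against 2.64 to 2.73 in the other libraries of the group. The log2 ratio of miR-206-3p over miR-133b-3p was 5.81, against 1.66 to 2.24. The log2 ratio of miR-206-3p over miR-206-5p was 9.51, against 2.96 to 3.72, from a library with no count of the 5p arm. In low responder amygdala replicate 1 the log2 ratio of miR-1-3p over miR-133a-3p was 3.79, against 2.95 to 3.08. In the same library miR-133b-3p had a log2 CPM of 2.51, against 2.05 to 2.10.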

How the results depend on the processing

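miR-1-3p, miR-133a-3p, miR-133b-3p and miR-206-3p kept their lower level in amygdala and their call in the averaged comparison under all settings run, from -2.77 to -2.20 for miR-1-3p and from -2.02 to -1.22 for miR-206-3p. The count of members called in low responders was 4, and 2 with the replicate block, in which 6 members could be tested. It was 2 to 5 when 1 library was left out. The number of all miRNAs called in those fits is not given here, so this range is no result about the members alone. With the block the low responder differences were -1.56 for miR-133b-3p (adjusted p = 0.102) and -1.28 for miR-206-3p (adjusted p = 0.125), and miR-133b-5p passed in high responders (2.72, adjusted p = 0.0122). In low responders the replicate block called 21 miRNAs against 90 without it, and the block changed no line call in amygdala. Another scaling moved the median log2 difference of all miRNAs in low responders to 0.00 (RLE) and 0.02 (library totals), against -0.12, and in high responders to 0.12 and -0.11, against 0.08. Adding 2 to each count changed no group's mean ratio by more than the spread between libraries. The average and the interaction were not run with only the compared groups.

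Line differences near 0 turned their sign, and none passed the threshold. In dorsal raphe miR-133a-5p was 0.08 by library totals, 0.01 with only the compared groups and 0.04 with the replicate block. There miR-206-5p was 0.04 with limma-voom and 0.13 with the block. miR-133b-3p by itself stayed positive in dorsal raphe, at 0.16 to 0.63 when 1 library was left out. Only its sum with miR-133a-3p was negative (-0.14), and miR-133a-3p held most counts of that sum. In amygdala miR-1-3p was 0.01 with limma-voom. For the interaction, without the 2 shallow libraries (high responder amygdala replicate 1 and low responder dorsal raphe replicate 4), miR-133a-5p was 0.01, miR-133b-5p -0.13 and miR-206-5p 0.30; miR-133b-5p was -0.10 by library totals and -0.10 with the block. miR-206-5p was 0.11 by library totals without low responder dorsal raphe replicate 4, a setting chosen after seeing the data. Leaving out 1 library gave, in dorsal raphe, -0.27 to 0.02 for miR-133a-3p, -0.20 to 0.20 for miR-133a-5p, -0.60 to 0.70 for miR-133b-5p and -0.30 to 0.43 for miR-206-5p. In amygdala it gave -0.19 to 0.14 for miR-1-3p, -1.40 to 0.30 for miR-133a-5p, -0.03 to 0.86 for miR-133b-5p and -0.68 to 0.10 for miR-206-5p. For the interaction it gave -1.39 to 0.36 for miR-133a-5p, -0.35 to 0.95 for miR-133b-5p and -0.65 to 0.12 for miR-206-5p. The cause was not tested. Counts of at most 51 per library limit what the 5p arms can show.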
